A study of Mus musculus with 9 samples.

Results

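The comparison described here set livers of mice given dmPGE2 before an overdose of acetaminophen (APAP) against livers of mice given APAP alone. Its members are 6 of the 9 samples of the series, 3 per group, chosen by their labels, and it is read over 11557 of the 21870 genes in the mRNA table. A gene entered when it reached 0.5 FPKM (fragments per kilobase of transcript scaled to the mapped fragments of the library, a level corrected for gene length) in at least 3 of the 9 libraries. All mice were wild-type C57 BL6 with an age of 8 weeks and a mean weight of 20 g. APAP was injected into the peritoneum at 500 mg/kg. The dmPGE2+APAP group received 300 μg/kg of dmPGE2 by the same route 1 h before that dose, and controls were given saline. Tissue was taken 6 h after APAP. No label ties a library to an animal, so the tests measure the spread between these samples, which may in part be technical. A group given dmPGE2 without APAP was not analysed here, so a response to the compound itself and an altered response to APAP cannot be told apart.

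Prostaglandin E2 is a lipid signal made by cyclooxygenases from arachidonic acid, and dmPGE2 is its slowly degraded dimethyl analogue. It acts through the EP receptors, encoded by Ptger1 to Ptger4. EP2 and EP4 couple to adenylyl cyclase, cAMP, protein kinase A and the transcription factor CREB. APAP overdose injures pericentral hepatocytes, where Cyp2e1 and other cytochromes P450 turn the drug into a reactive quinone imine. This product depletes glutathione, binds mitochondrial proteins and activates the kinase JNK, and the injured tissue switches on immediate early and stress genes and attracts blood cells.

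The 6 libraries were alike in general measures. Between 9979 and 10242 genes reached 1 FPKM in each, FPKM summed to between 371958.2 and 393937.6, and albumin mRNA took 7.07% to 8.33% of the sum. The depth behind a value is not known. Of 12 exocrine pancreas genes 8 were at 0 in every library, and the summed FPKM of the 12 was 4.32 to 6.52 in the treated livers. Summed FPKM of 5 hepatocyte genes was 39831 to 45996 in APAP livers and 40296 to 44521 in dmPGE2+APAP livers. Because these are bulk livers, fewer cells of a type and less RNA per cell cannot be told apart in any of the values below. Values printed per library are FPKM as deposited, in the order of replicates 1, 2 and 3, while folds, log2 differences and statements on overlap use FPKM divided by a scaling factor per library. Folds are on the log2(FPKM + 0.1) scale, which understates differences of low genes.

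The livers of the dmPGE2+APAP and APAP groups differed little compared with the distance of both from saline. Over all tested genes the root mean square log2 difference between 2 livers was 0.406 to 0.454 within the APAP group and 0.348 to 0.42 within the dmPGE2+APAP group. Between the groups it was 0.378 to 0.544, a range that overlaps both. APAP livers were 0.648 to 0.842 away from saline livers and dmPGE2+APAP livers 0.618 to 0.772 away. Within the saline group the difference was 0.363 to 0.55, which reaches past the largest value between the treated groups. The same saline liver was in both pairs at 0.54 and 0.55, and it also enters the distances from saline. The plot of distances between pairs of libraries shows 3 of the 9 pairs between the treated groups above every pair within either treated group. These 3 pairs hold the second or the third dmPGE2+APAP liver.

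**Figure D1:**
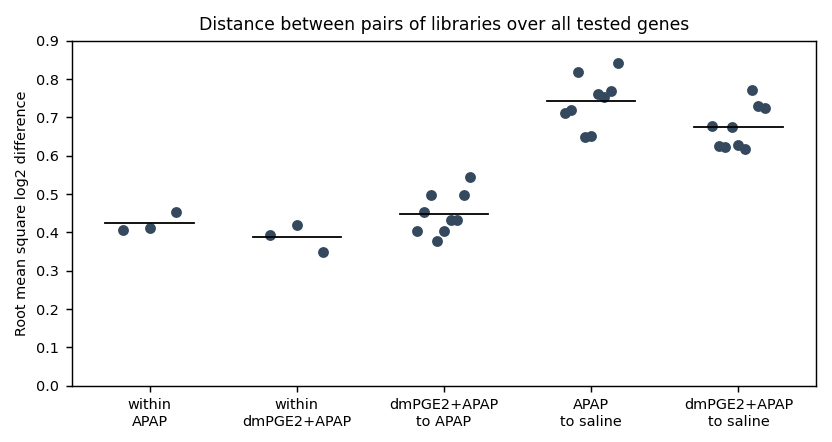
Root mean square log2 difference (y axis) between every pair of libraries of the class named on the x axis, over 11557 genes. Points are pairs of libraries and lines are means. The 9 pairs between dmPGE2+APAP and APAP lie between 0.378 and 0.544, overlapping the pairs within each treated group. The pairs of a treated and a saline liver all lie at 0.618 or above. Pairs within the saline group are not drawn.

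With limma, a linear model that pools the spread across genes, 0 of 11557 genes (0%) passed an adjusted p of 0.05 between dmPGE2+APAP and APAP. The smallest adjusted p was 0.152, and 11 genes lay under 0.2. A fit of the 6 treated libraries alone called 0 genes higher and 2 lower, and a fit with a weight per library called 1 higher, Arl4d, and 0 lower. At an unadjusted p under 0.05 stood 526 genes with higher levels after dmPGE2 (4.55% of those tested) and 543 with lower levels (4.70%). Both directions together held 1069 genes, where 577.85 would be expected at this threshold if no gene differed. When a library was left out the total ranged from 619 to 1355, and the total itself was not tested. For comparison, APAP raised 1222 genes (10.6%) and lowered 1191 (10.3%) against saline at an adjusted p under 0.05. The dmPGE2+APAP group, which shares the saline libraries, had 984 genes above saline (8.51%) and 903 below (7.81%).

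The typical difference was small and the largest ones were not. The median absolute log2 fold change between the groups was 0.133, against 0.255 for APAP and 0.229 for dmPGE2+APAP over saline. Past 1.5-fold were 578 genes and past 2-fold were 158, of which 61 were higher and 97 lower after dmPGE2. Past 2-fold were 802 genes for APAP and 672 for dmPGE2+APAP against saline. The standard error of a gene's log2 fold change had a median of 0.152, and the 95% interval of a gene reached a median of 0.344 to either side, or 1.27-fold.

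**Figure D2:**
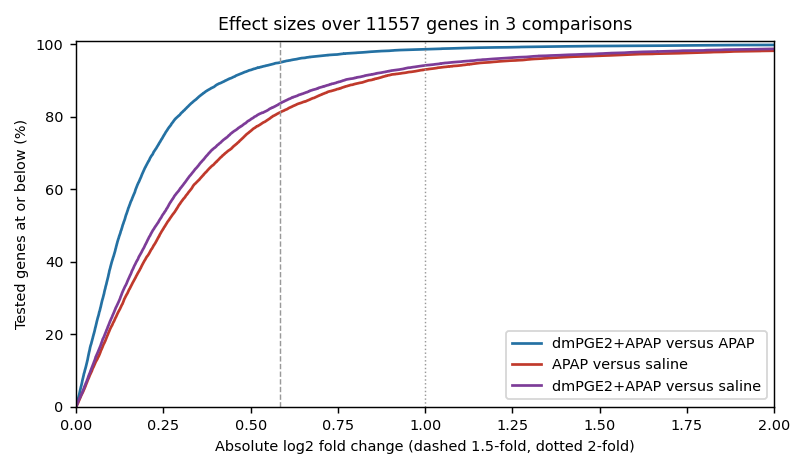
Share of 11557 tested genes (y axis, percent) whose absolute log2 fold change is at or below the value on the x axis, for 3 comparisons that share libraries. The curve for dmPGE2+APAP versus APAP climbs fastest, with a median of 0.133, against 0.255 and 0.229 for the comparisons with saline.

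In 1078 genes (9.33%) every dmPGE2+APAP liver was above every APAP liver, and in 856 genes (7.41%) every one was below. Of these, 134 and 162 differed by more than 1.5-fold, and 29 and 59 by more than 2-fold. The split depends on the scaling: without rescaling of the libraries the counts were 822 above and 1032 below, and at an unadjusted p under 0.05 they were 398 and 648. With median-of-ratios scaling they were 951 and 940, and 445 and 623. Rescaling moved the median difference by 0.029 on the log2 scale. Of the tested genes 1 passed the level filter through the dmPGE2+APAP libraries alone and 10 through the APAP libraries alone, and these 11 had to differ to be tested at all.

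Both groups were graded within themselves. On the first principal component of the 6 livers, which held 38.4% of their variance, APAP replicates 1, 2 and 3 lay at −17, 0.27 and −27.7 and the dmPGE2+APAP replicates at −0.3, 18 and 26.7. APAP replicate 2 and dmPGE2+APAP replicate 1 thus met in the middle. Among the 1934 genes whose groups do not overlap, dmPGE2+APAP replicate 1 was the library of its group nearest to APAP in 51.8%, and APAP replicate 2 was the library nearest to dmPGE2+APAP in 48.4%. Without dmPGE2+APAP replicate 1, limma called 11 genes higher and 23 lower, among them Arl4d, Upp2, Setdb2, Phf11c, Sesn1, Socs2 and Ahr (higher) and Dusp5, Hilpda, Pf4, Ppbp, Tubb1, Plscr1, Phlda1 and Krt8 (lower). Leaving out APAP replicate 2 gave 2 calls higher (Gm20708 and Zfp422), and leaving out APAP replicate 3 gave 1 (Zfp358), names seen only after the values.

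The smallest p of all genes belonged to Arl4d, a small GTPase of the ADP-ribosylation factor family and a member of the list of cAMP targets (Arl4d, ENSMUSG00000034936, chromosome 11, from 101665532 to 101667832, GRCm38). That list was chosen with earlier results of these data known, so this membership is not independent of them. Arl4d stood at 14.4, 18.2 and 12.8 FPKM in the APAP livers and 34.8, 62.8 and 55.2 FPKM in the dmPGE2+APAP livers. All 3 dmPGE2+APAP livers lay above all APAP livers and above the saline livers at 12.9, 11.9 and 13.5 FPKM, with the first replicate the lowest of its group. The difference was 3.35-fold (log2 1.74 ± 0.21 SE, limma adjusted p = 0.152), and with a weight per library it passed (adjusted p = 0.0414). APAP alone did not pass against saline (1.26-fold higher, limma adjusted p = 0.289). Retreg1, a receptor for the autophagy of the endoplasmic reticulum, stood at 47.8, 54.4 and 48.4 FPKM in the APAP livers and 99.6, 93 and 97.3 FPKM in the dmPGE2+APAP livers (Retreg1, ENSMUSG00000022270, chromosome 15, from 25843180 to 25973687). These groups were tight and did not overlap (1.96-fold higher, adjusted p = 0.178), and Retreg1 had also risen 2.18-fold with APAP over saline.

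Because CREB binds the palindromic cAMP response element TGACGTCA, the promoters of the genes with the largest and the most significant differences were searched for it on both strands. RefSeq promoters of GRCm38.p6 (250 bases before to 50 after a start) were used, and the search was chosen after the values were seen. The element was in 1.79% of all 32851 promoters and in 319 of the 9129 tested genes with a promoter (3.49%). Of the 12 genes with the smallest p, 10 had a promoter and 2 held it, Arl4d and Retreg1. Among the genes with the largest folds, it was in 1 of 11 higher genes that had a promoter, again Arl4d, and in 0 of 11 lower ones. Of the 29 genes of the cAMP list with a promoter, 4 held it (Areg, Arl4d, Dusp1 and Prkar1a), and that list was chosen with earlier results known. The E-box CACGTG, a site of the clock and Myc families, was in 11.9% of tested genes with a promoter and in Ciart, Gadd45g and Vma21 among the 11 higher genes. It was in 0 of 11 lower genes and in 1 of the 10 with the smallest p. The core TGACG, contained in the full element, and the D-box TTATGCAA were searched as well. They were in 35.3% and 0.822% of tested genes with a promoter. The core was in 2 of 11 higher genes, 3 of 11 lower genes and 3 of the 10 with the smallest p. These shares were all below that of tested genes, while in the cAMP list 22 of 29 genes held the core. The D-box was in 0 of 11 higher genes, 0 of 11 lower genes and 1 of the 10 with the smallest p. In the cAMP list 1 of 29 genes held the D-box. A match describes these letters and shows no binding. The 250 bases before the start of both genes are printed 5′ to 3′ with the element in capitals.
Arl4d, GRCm38.p6 chr11:101665291-101665540, plus strand: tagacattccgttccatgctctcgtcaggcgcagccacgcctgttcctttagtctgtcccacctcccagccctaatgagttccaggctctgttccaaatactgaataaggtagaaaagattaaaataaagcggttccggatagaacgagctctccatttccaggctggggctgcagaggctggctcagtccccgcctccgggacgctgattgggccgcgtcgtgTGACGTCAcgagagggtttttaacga
Retreg1, GRCm38.p6 chr15:25843048-25843297, plus strand: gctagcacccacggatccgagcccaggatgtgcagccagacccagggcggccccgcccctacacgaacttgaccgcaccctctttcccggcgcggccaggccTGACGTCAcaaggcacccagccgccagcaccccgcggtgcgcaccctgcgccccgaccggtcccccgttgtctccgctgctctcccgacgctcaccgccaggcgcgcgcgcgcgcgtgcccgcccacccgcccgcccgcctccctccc
In Arl4d the element ends 18 bases before the start, and in this Retreg1 promoter, 1 of 4 listed for the gene, 140 bases before it. The other 3 Retreg1 promoters lack it. Of the other genes of the cAMP list with the element, Areg was at 1.4, 0.919 and 1.81 FPKM in the APAP livers and 0.348, 0.524 and 0.386 FPKM in the dmPGE2+APAP livers, where every dmPGE2+APAP liver was the lower. Dusp1, a phosphatase of MAP kinases named after its values were seen, was at 119.7, 144 and 125 against 138, 100.5 and 91.5 FPKM and overlapped. Prkar1a, a regulatory subunit of protein kinase A named after its values were seen, was at 49.9, 47.7 and 46.8 against 46.5, 47.8 and 47.9 FPKM and overlapped.

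Among the genes with the largest differences whose groups do not overlap, 12 had higher levels after dmPGE2. Cyp7a1, the enzyme that sets the pace of bile acid synthesis, stood at 1.99, 5.75 and 6.72 FPKM in the APAP livers and 8.4, 57.2 and 34.4 FPKM in the dmPGE2+APAP livers, 5.98-fold higher (log2 2.58 ± 0.70 SE, limma adjusted p = 0.339). Saline livers held 17.5, 43.3 and 40.5 FPKM and APAP had lowered the gene 6.7-fold. The second and the third dmPGE2+APAP livers thus stood within or above the saline range and the first did not. Upp2, a uridine phosphorylase with a daily rhythm in liver, stood at 26.4, 36 and 37.9 FPKM in the APAP livers and 65.7, 128 and 134 FPKM in the dmPGE2+APAP livers, and saline livers at 76.1, 88.9 and 99.9 FPKM (3.21-fold higher, adjusted p = 0.178). Again the first replicate was the lowest of its group, and it was still above every APAP liver. Ddit4, which encodes the mTORC1 inhibitor REDD1, stood at 7.25, 13.1 and 6.39 FPKM in the APAP livers and 15, 41.4 and 47.6 FPKM in the dmPGE2+APAP livers (3.7-fold). Gadd45g, a growth arrest and DNA damage gene, stood at 32, 37.4 and 22.7 FPKM in the APAP livers and 75.6, 111 and 87.4 FPKM in the dmPGE2+APAP livers (3.06-fold). For both, no library of one group reached the other, and both had risen with APAP over saline, Ddit4 3.34-fold and Gadd45g 6.19-fold.

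Setdb2, a histone methyltransferase gene (Setdb2, ENSMUSG00000071350, chromosome 14, from 59402009 to 59440884), and its neighbour Phf11c on the same strand (Phf11c, ENSMUSG00000091144, chromosome 14, from 59380833 to 59395381) shared an uneven pattern. Setdb2 was at 4.6, 4.79 and 6.2 FPKM in the APAP livers and 6.55, 42.6 and 34.8 FPKM in the dmPGE2+APAP livers. Phf11c was at 0.793, 0.636 and 1.13 FPKM in the APAP livers and 1.4, 7.88 and 6.55 FPKM in the dmPGE2+APAP livers. The second and the third dmPGE2+APAP livers held several times the level of any other library, and the first lay just above the APAP range. Ciart, a repressor of the circadian clock, was at 6.36, 4.03 and 3.33 FPKM in the APAP livers and 8.45, 14.9 and 15.9 FPKM in the dmPGE2+APAP livers (2.87-fold). Map2k6, a kinase of the p38 cascade, was at 1.16, 3.2 and 1.46 FPKM in the APAP livers and 3.32, 5.05 and 6.94 FPKM in the dmPGE2+APAP livers (2.73-fold). Neither gene overlapped, and the second APAP liver came closest for Map2k6. Vma21, an assembly factor of the proton pump of acid organelles, had 1.79, 1.06 and 7.26 FPKM with APAP and 8.04, 8.43 and 9.25 with dmPGE2, and saline livers held 1.45, 9.65 and 2.04 FPKM. Sumo2, which may share reads with processed copies, was at 0.833, 0.324 and 3.21 against 4.78, 6.11 and 5.71 FPKM (5.25-fold), with 7.17, 7.31 and 0.825 FPKM in saline. Lsm3, a splicing factor subunit, was at 1.72, 0.765 and 0.404 against 2.94, 2.92 and 2.33 FPKM (3.1-fold). In these 3 genes the dmPGE2+APAP livers were closer together than the APAP or the saline livers.

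The 12 genes with the largest differences in the other direction were led by the glutathione transferase genes Gm3776 and Gsta1, near-identical copies that may share reads. Gsta1 was at 13, 9.34 and 12.7 FPKM in the APAP livers and 7.91, 1.29 and 0.611 FPKM in the dmPGE2+APAP livers. Gm3776 was at 8.56, 6.29 and 8.34 and 2.78, 0.379 and 0 FPKM in the 2 groups and listed at 0 in all saline livers. Dusp5, a phosphatase that inactivates ERK, was at 19.6, 11.9 and 27 FPKM in the APAP livers and 9.74, 1.83 and 0.729 FPKM in the dmPGE2+APAP livers (7.29-fold lower, log2 −2.87 ± 0.76 SE, limma adjusted p = 0.332). In all of these the first dmPGE2+APAP liver was the highest of its group and still below every APAP liver. Rab30, a small GTPase of the Golgi (Rab30, ENSMUSG00000030643, chromosome 7, from 92741603 to 92844535), was different: it stood at 145, 36.5 and 97 FPKM in the APAP livers and 11.5, 12.7 and 13.3 FPKM in the dmPGE2+APAP livers, with saline at 5.97, 5.53 and 1.98 FPKM. Its dmPGE2+APAP livers were tight and its APAP livers spread widely (6.24-fold lower, log2 −2.64 ± 0.52 SE, adjusted p = 0.253). Nek7, a kinase needed for the NLRP3 inflammasome, was at 19.2, 20.4 and 19.5 FPKM in the APAP livers and 5.1, 6.16 and 5.67 FPKM in the dmPGE2+APAP livers. Saline livers held 21, 20.3 and 5.81 FPKM, so the 9 livers fell into 5 at 19.2 to 21 FPKM and 4 at 5.1 to 6.16 FPKM, with 1 saline liver in the low set. With the 6 treated livers alone Nek7 passed (limma adjusted p = 0.00126), as it did without that saline liver (adjusted p = 0.000266).

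Of the 12 genes, 3 act in fuel or lipid storage. Pdk4, the kinase that shuts pyruvate dehydrogenase in fasting, was at 77.4, 62.9 and 106 FPKM in the APAP livers and 9.46, 30.4 and 29 FPKM in the dmPGE2+APAP livers (3.86-fold lower). Cidec, a lipid droplet fusion protein, was at 105, 71.2 and 62.6 FPKM in the APAP livers and 16.2, 26.6 and 20.0 FPKM in the dmPGE2+APAP livers (3.69-fold lower). Hilpda, a hypoxia-inducible inhibitor of droplet lipolysis, was at 134, 91.2 and 171 FPKM in the APAP livers and 82.9, 30.1 and 12.3 FPKM in the dmPGE2+APAP livers (3.99-fold lower). APAP had raised all 3 over saline, Pdk4 43.3-fold, Cidec 39-fold and Hilpda 96.9-fold, and the dmPGE2+APAP livers lay between the other groups. Plin2, the main droplet coat protein, was at 579, 498 and 505 FPKM in the APAP livers and 292, 312 and 226 FPKM in the dmPGE2+APAP livers. Angptl4, an inhibitor of lipoprotein lipase, was at 95.2, 102 and 95.6 FPKM in the APAP livers and 54.9, 60.9 and 66.4 FPKM in the dmPGE2+APAP livers. For both, every dmPGE2+APAP liver was below every APAP liver (1.88-fold and 1.58-fold lower, limma adjusted p of 0.208 and 0.284). G0s2, another inhibitor of droplet lipolysis, was named after its values were seen: it was at 162, 146 and 152 and 42.3, 45.8 and 49.7 FPKM, and saline livers held 45.7, 111 and 37 FPKM. It passed with the 6 treated livers alone (limma log2 −1.71, adjusted p = 0.00126) and without the saline liver at 110.6 FPKM (log2 −1.71, adjusted p = 0.0077).

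The remaining genes of this set were Plscr1, Slc15a2, Ppbp and Il1b. Plscr1, an interferon-inducible phospholipid scramblase, was at 18.6, 9.45 and 18.8 FPKM in the APAP livers and 5.89, 3.0 and 2.73 FPKM in the dmPGE2+APAP livers, and saline livers at 3.18, 2.99 and 3.77 FPKM. Its first dmPGE2+APAP liver lay above the saline range, the second within it and the third just below it. The peptide transporter gene Slc15a2 had 5.64, 1.58 and 4.85 FPKM and 0.175, 1.6 and 1.48 FPKM, which overlap as deposited and do not after scaling. Ppbp and Il1b are described with their cell types below. Of the genes with the smallest p that were named only after values were seen, Ube2l6 (an ISG15-conjugating enzyme, 1.88-fold), Coq9 (ubiquinone synthesis, 1.58-fold), Tmem173 (the DNA sensor adaptor STING, 2.49-fold) and Pomgnt2 (a glycosyltransferase, 2.88-fold) were lower. Blm, a DNA helicase (1.95-fold), and the histone gene Hist1h4k, whose copies may share reads (1.86-fold), were higher. Ube2l6 was at 16, 11.1 and 13.9 FPKM in the APAP livers and 6.81, 7.41 and 6.82 FPKM in the dmPGE2+APAP livers and at 6.59, 7.16 and 8.05 FPKM in saline livers, so the dmPGE2+APAP livers lay within the saline range as deposited, and the second just above it after scaling. Coq9 at 29.3, 27.3 and 25.9 against 16.1, 17.6 and 17.4 FPKM did not overlap, and its saline levels were 17.6, 20.2 and 20.6 FPKM. Coq9, Ciart, Dusp5, Il1b, Nek7, Pomgnt2, Glul and Jun are among 56 of the 212 named genes overlapped by a gene on the opposite strand, and whether the counting used strand is not given in the sources used here.

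**Figure D3:**
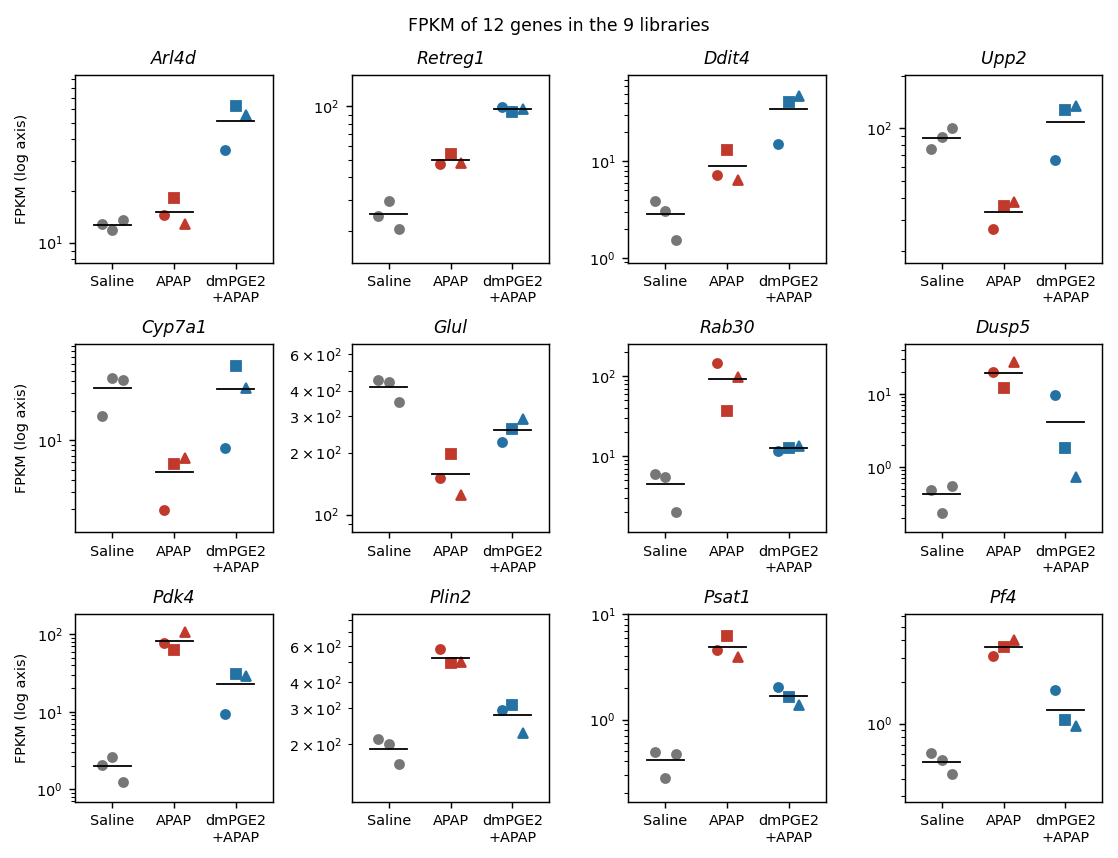
FPKM on a log axis (y) of 12 genes in saline, APAP and dmPGE2+APAP livers (x). Each point is a library, circles, squares and triangles mark replicates 1, 2 and 3 of the treated groups, and lines are group means. In the first 6 genes every dmPGE2+APAP liver is above every APAP liver and in the last 6 every one is below, and the dmPGE2+APAP circle is often the point nearest to APAP, as at 9.74 FPKM for Dusp5.

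The gene lists below are read against all tested genes, whose median log2 fold change was 0.023 and of which 4.55% were higher and 4.70% lower at an unadjusted p under 0.05. The groups did not overlap in 9.33% of all tested genes with higher levels after dmPGE2 and in 7.41% with lower levels. Of 788 list members tested, 0 passed an adjusted p of 0.05. Immediate early genes, which respond to signals within minutes without new protein, had mostly negative log2 fold changes. Of 28 tested, 24 had a negative log2 fold change, 11 were lower and 1 higher at an unadjusted p under 0.05, and the median was −0.61. The count of lower members ranged from 5 (without APAP replicate 1 or 3, or dmPGE2+APAP replicate 2 or 3) to 16 (without dmPGE2+APAP replicate 1). APAP raised 27 of the 28 over saline with a median of 3.22, and in dmPGE2+APAP livers, set against the same saline libraries, 21 were raised with a median of 2.47. The median level over saline was 3.35, 2.81 and 3.26 (log2) in the APAP livers and 3.24, 2.17 and 1.89 in the dmPGE2+APAP livers, so the first dmPGE2+APAP liver lay inside the APAP range.

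Within the list, members of the AP-1 family had 4 of 8 lower. Fosl1 was at 1.2, 0.626 and 1.92 FPKM in the APAP livers and 0.568, 0.133 and 0.136 FPKM in the dmPGE2+APAP livers (3.68-fold lower). Fosl2 was at 24.3, 14.6 and 27.1 FPKM in the APAP livers and 19.7, 8.18 and 7.35 FPKM in the dmPGE2+APAP livers (1.96-fold lower). Fosl1 did not overlap and Fosl2 did. Jun was at 159.6, 153 and 149 FPKM in the APAP livers and 147, 123 and 105 FPKM in the dmPGE2+APAP livers (limma adjusted p = 0.741). Atf3, a stress-induced factor, was at 112, 88.6 and 113 FPKM in the APAP livers and 88.6, 61.2 and 43.3 FPKM in the dmPGE2+APAP livers (1.65-fold lower, adjusted p = 0.516). Both genes were high in all 6 livers and their groups overlapped after scaling. Klf6, a Krüppel-like factor, was at 24.7, 19.1 and 24.7 FPKM in the APAP livers and 16.6, 17.4 and 15 FPKM in the dmPGE2+APAP livers with no overlap (1.36-fold lower). Klf2, a flow-responsive relative, was at 7.37, 8.15 and 5.85 FPKM in the APAP livers and 11, 8.53 and 8.35 FPKM in the dmPGE2+APAP livers and was the 1 member higher (1.33-fold). Opposite directions thus occurred within 1 family. Mafk, a small Maf protein, was at 22.1, 17.2 and 21.9 FPKM in the APAP livers and 16.5, 12.4 and 11.9 FPKM in the dmPGE2+APAP livers (1.47-fold lower), also with no overlap. Nr4a1, an orphan receptor that responds to cAMP as well as to stress, was at 61.3, 21.5 and 54.5 FPKM in the APAP livers and 96.7, 32.9 and 18 FPKM in the dmPGE2+APAP livers, and the first dmPGE2+APAP liver was the highest of the 6.

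**Figure D4:**
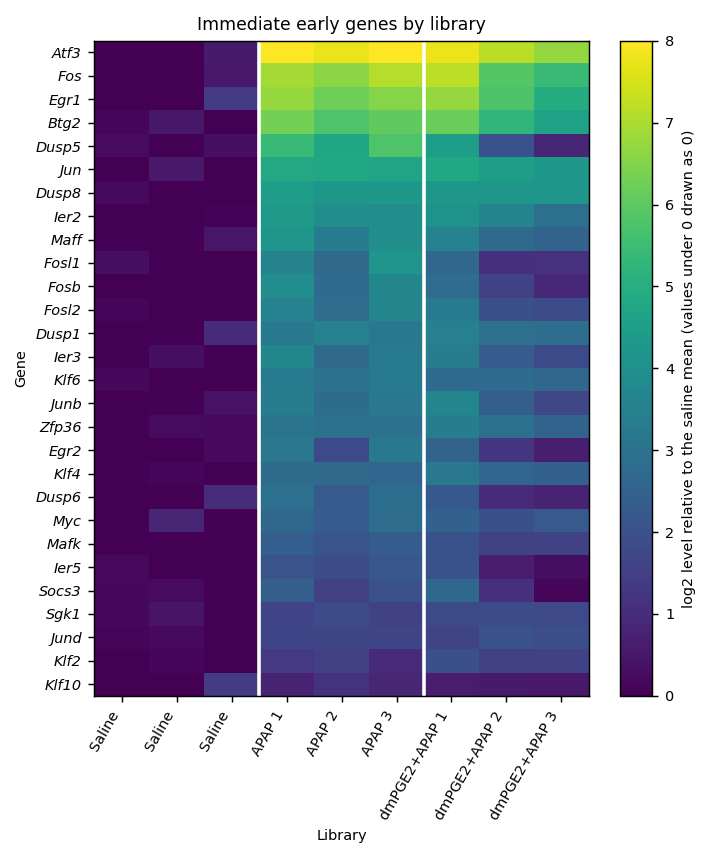
Log2 level of 28 immediate early genes (rows) relative to each gene's saline mean in the 9 libraries (columns), with values under 0 drawn as 0. Most genes are high in all APAP livers and in dmPGE2+APAP replicate 1 and weaker in replicates 2 and 3, as the list medians of 3.24, 2.17 and 1.89 state.

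**Figure D5:**
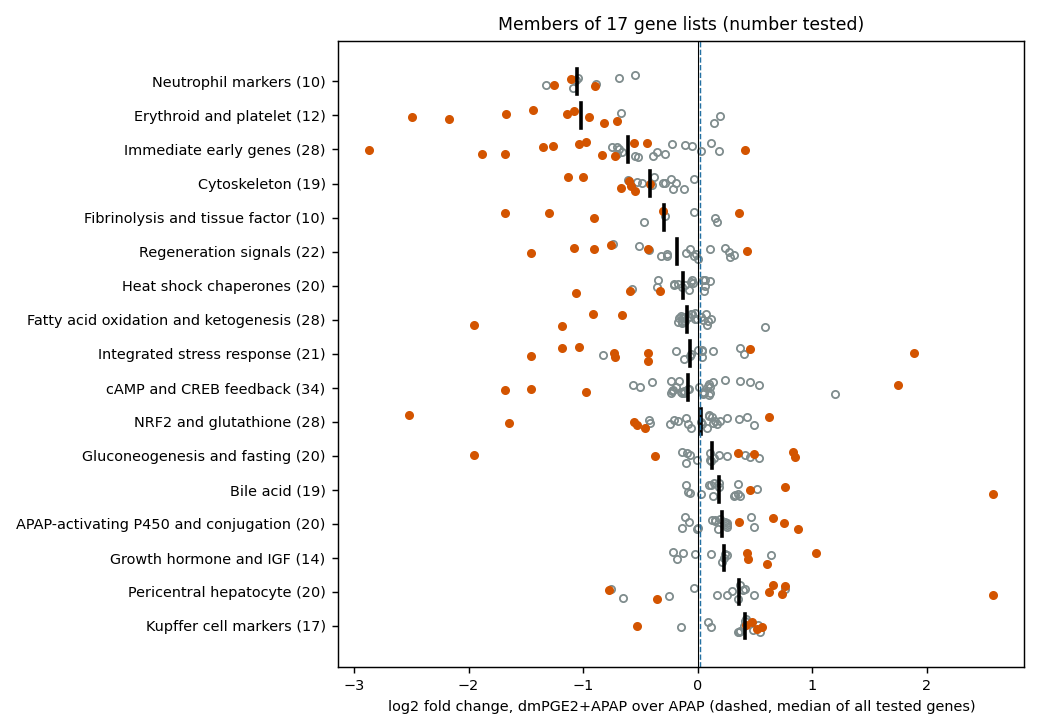
Log2 fold change of dmPGE2+APAP over APAP (x axis) for each tested member of 17 gene lists (rows, number tested in brackets). Filled points have an unadjusted p under 0.05, black bars are list medians and the dashed line is the median of all tested genes, 0.023. Immediate early genes have a median of −0.61 and Kupffer cell markers one of 0.42.

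Stress programmes were divided. In the integrated stress response, by which ATF4 and CHOP answer amino acid and protein folding stress, 7 of 21 members were lower and 2 higher at an unadjusted p under 0.05 (median −0.07). The lower count ranged from 3 to 8 when a library was left out. The lower ones included genes of amino acid metabolism. Psat1, of serine synthesis, was at 4.55, 6.22 and 3.92 FPKM in the APAP livers and 2.05, 1.63 and 1.36 FPKM in the dmPGE2+APAP livers (2.74-fold lower, limma adjusted p = 0.203). Mthfd2, of mitochondrial folate metabolism, was at 3.3, 4.31 and 4.64 FPKM in the APAP livers and 2.28, 1.88 and 1.55 FPKM in the dmPGE2+APAP livers (2.05-fold lower). Slc7a1, a transporter of cationic amino acids, was at 2.47, 2.08 and 2.02 FPKM in the APAP livers and 1.34, 1.4 and 1.04 FPKM in the dmPGE2+APAP livers (1.66-fold lower). In these 3 genes the groups did not overlap and the saline levels were lower still, with the highest for Mthfd2 at 0.78, 0.677 and 0.922 FPKM. Ddit3, which encodes CHOP, went the other way, at 8.58, 7.1 and 7.56 FPKM in the APAP livers and 11.2, 8.12 and 12.4 FPKM in the dmPGE2+APAP livers (1.37-fold higher), and its groups overlapped. Atf4 itself, named after its values were seen, was at 74.1, 67.8 and 70.0 against 68.6, 72.2 and 72.6 FPKM and overlapped.

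Of 19 p53 targets 3 were higher (Gadd45g, Gadd45b and Sesn1) and 1 lower (Mdm2). Mdm2, the ubiquitin ligase of p53, was at 37.7, 28 and 43.4 FPKM in the APAP livers and 26.5, 17.7 and 16.4 FPKM in the dmPGE2+APAP livers with no overlap (1.77-fold lower). Cdkn1a, the cell cycle inhibitor p21, was at 107, 122 and 107 FPKM in the APAP livers and 125, 107 and 100.3 FPKM in the dmPGE2+APAP livers, which overlap, and saline livers held 2.53, 1.8 and 0.352 FPKM. Sesn1, a sestrin, was at 2.87, 3.14 and 2.58 FPKM in the APAP livers and 2.78, 7.09 and 6.73 FPKM in the dmPGE2+APAP livers, where the first replicate lay inside the APAP range and the other two stood apart. Gdf15, a stress hormone, was at 187, 154 and 175 FPKM in the APAP livers and 134, 145 and 98.8 FPKM in the dmPGE2+APAP livers with no overlap (1.35-fold lower). The median of the p53 list, 0.0094, turned negative without rescaling (−0.02) and with median-of-ratios scaling (−0.0087).

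Of 20 heat shock chaperones 3 were lower and 0 higher (median −0.13), with 2 to 6 lower when a library was left out. Hspa8, the constitutive chaperone, was at 800.0, 609.7 and 625 FPKM in the APAP livers and 439, 393 and 488 FPKM in the dmPGE2+APAP livers with no overlap (1.51-fold lower). Dnajb1 was at 39.7, 15.7 and 29.7 FPKM in the APAP livers and 18.4, 10.5 and 9.76 FPKM in the dmPGE2+APAP livers and overlapped (2.08-fold lower), Bag3 was 1.26-fold lower, and Hspa1a, which may share reads with its copy Hspa1b, was at 4.47, 2.58 and 5.04 against 3.14, 2.33 and 2.19 FPKM. ER chaperones had 1 of 17 higher, Herpud1, of ER-associated degradation, at 193, 298 and 221 FPKM in the APAP livers and 286, 404 and 398 FPKM in the dmPGE2+APAP livers (1.57-fold higher), and 0 lower. Of 28 NRF2 and glutathione genes 5 were lower and 1 higher, with between 1 and 6 lower when a library was left out. Gclc, the catalytic subunit of glutathione synthesis, was at 129.6, 97.5 and 127 FPKM in the APAP livers and 94.6, 76.2 and 66.2 FPKM in the dmPGE2+APAP livers with no overlap (1.47-fold lower), and its partner Gclm, at 32.5, 22.5 and 32.6 against 36.4, 34.9 and 15.6 FPKM, overlapped. Srxn1, which restores peroxiredoxins, was at 90.3, 46.3 and 103 FPKM in the APAP livers and 48.3, 16.7 and 16.1 FPKM in the dmPGE2+APAP livers (3.13-fold lower), and Txnrd1 was 1.37-fold lower. Hmox1, haem oxygenase, was at 344, 251 and 314 FPKM in the APAP livers and 215, 255 and 156 FPKM in the dmPGE2+APAP livers (1.44-fold lower). As deposited the second dmPGE2+APAP liver was above the second APAP liver, and after scaling the groups did not overlap. Gstm2, a glutathione transferase that APAP had lowered 1.77-fold, was the 1 member higher (1.54-fold).

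Of 20 genes that activate or conjugate APAP 4 were higher and 0 lower at an unadjusted p under 0.05 (median 0.21), and 1 to 5 were higher when a library was left out. Cyp2e1, the main activating enzyme, was at 2364, 3007 and 2575 FPKM in the APAP livers and 3095, 3001 and 3160.3 FPKM in the dmPGE2+APAP livers, with groups that overlap (1.19-fold higher, limma adjusted p = 0.72). The 95% interval of its log2 difference ran from −0.20 to 0.71. Cyp3a11 was at 646, 1346 and 753 FPKM in the APAP livers and 1188, 1612 and 1533 FPKM in the dmPGE2+APAP livers (1.68-fold higher, with overlap). Ahr, the receptor that controls several of these enzymes, was at 8.36, 9.41 and 8.99 FPKM in the APAP livers and 11.8, 18.4 and 19.3 FPKM in the dmPGE2+APAP livers with no overlap (1.84-fold higher). Cyp2a5, which APAP had lowered 6.47-fold, was at 27, 56.5 and 34.2 against 58.3, 49.5 and 67.1 FPKM, and Ugt2b36, a glucuronosyltransferase, was 1.28-fold higher, both with overlap.

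Among 20 pericentral genes 5 were higher and 2 lower (median 0.36, and 3 to 8 higher when a library was left out), while APAP had lowered 7 of the 20 and raised 0. The 12 Wnt targets among them had a median of 0.07, with 3 higher and 2 lower. The other 8, pericentral enzymes, had a median of 0.38, with 2 higher and 0 lower. Glul, glutamine synthetase of the cells nearest the central vein, was at 151, 196 and 125 FPKM in the APAP livers and 226, 260.5 and 290.1 FPKM in the dmPGE2+APAP livers with saline at 451, 441 and 354 FPKM. The groups did not overlap and the dmPGE2+APAP livers lay between APAP and saline (1.7-fold higher, limma adjusted p = 0.332). Rhbg, an ammonia channel of the same cells, was at 2.01, 2.91 and 2.45 FPKM in the APAP livers and 3.83, 3.93 and 4.37 FPKM in the dmPGE2+APAP livers, also with no overlap (1.67-fold higher). Tbx3, a Wnt-responsive transcription factor, was lower, at 3.78, 3.96 and 6.03 FPKM in the APAP livers and 2.73, 2.19 and 2.73 FPKM in the dmPGE2+APAP livers (1.71-fold), with no overlap. Of 17 periportal genes 15 had a positive log2 fold change but 1 was higher at an unadjusted p under 0.05, the serine dehydratase Sds, at 142, 189 and 94.7 FPKM in the APAP livers and 244, 301 and 295 FPKM in the dmPGE2+APAP livers (2.08-fold higher), and saline livers held 133, 146 and 58.8 FPKM. Of 19 bile acid genes 3 were higher and 0 lower (2 to 6 higher when a library was left out): Cyp7a1, above, Klb and Slco1a4. Cyp7a1 is also in the pericentral list, so the counts of these lists are not separate observations. Klb, the coreceptor of the gut hormone that restrains Cyp7a1, was at 11.3, 13.1 and 11.1 FPKM in the APAP livers and 13.1, 17.8 and 17.2 FPKM in the dmPGE2+APAP livers. Slco1a4, a transporter gene, was at 18.4, 24.3 and 15.1 FPKM in the APAP livers and 28.8, 29.9 and 36.2 FPKM in the dmPGE2+APAP livers. Neither overlapped after scaling. Of 22 hepatocyte identity genes (12 transcription factors and 10 secreted proteins) 2 were lower, the transcription factor genes Foxa2 at 3.92, 4.57 and 4.38 FPKM in the APAP livers and 2.96, 2.76 and 3.55 FPKM in the dmPGE2+APAP livers and Foxa1 at 3.83, 3.0 and 4.66 against 2.87, 2.64 and 2.63 FPKM, both with no overlap, and 0 were higher.

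Fasting genes differed in both directions, and growth hormone genes only upward, at an unadjusted p under 0.05. Of 20 gluconeogenesis and fasting genes 4 were higher and 2 lower (median 0.13). Lpin1, a phosphatidate phosphatase and coactivator, was at 52.2, 75.1 and 48.6 FPKM in the APAP livers and 88.6, 95.9 and 119 FPKM in the dmPGE2+APAP livers with no overlap (1.78-fold higher). Foxo1, the insulin-restrained transcription factor, was at 8.9, 11.9 and 10.6 against 13.9, 14.3 and 14.7 FPKM, again with no overlap. Pck1, the entry enzyme of gluconeogenesis, was at 1398, 1541 and 1212 against 1549, 1973 and 2069 FPKM, with no overlap and a limma adjusted p of 0.74. G6pc, its last enzyme, was at 174, 220.5 and 175 against 223, 177 and 200.1 FPKM. The coactivator gene Ppargc1a was at 5.48, 4.05 and 7.07 against 4.19, 5.03 and 5.21 FPKM, and these last 2 genes overlapped. Of 28 fatty acid oxidation and ketogenesis genes 4 were lower (Pdk4, Plin2, Angptl4 and Fgf21) and 0 higher, and none of the 12 oxidation enzymes was among them. Fgf21, a fasting and stress hormone, was at 23.9, 16.7 and 13.2 FPKM in the APAP livers and 12.2, 7.25 and 4.65 FPKM in the dmPGE2+APAP livers and did not overlap (2.27-fold lower).

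Of 14 growth hormone and IGF genes 4 were higher and 0 lower (2 to 4 higher when a library was left out). Igf1 was at 62.7, 47.8 and 56.1 FPKM in the APAP livers and 62.8, 76.4 and 80.3 FPKM in the dmPGE2+APAP livers (1.34-fold higher). Prlr, the prolactin receptor gene, was at 9.54, 9.47 and 10.6 FPKM in the APAP livers and 12.9, 17.4 and 14.1 FPKM in the dmPGE2+APAP livers (1.52-fold higher). Neither overlapped. Socs2, a target of growth hormone through STAT5, was at 2.26, 1.76 and 2.82 FPKM in the APAP livers and 2.11, 7.47 and 6.11 FPKM in the dmPGE2+APAP livers (2.05-fold higher), where the first replicate stayed in the APAP range. In the circadian list 2 of 23 genes were higher, Upp2 and Ciart, and 0 lower, and the core repressor gene Per1 was at 15.5, 13.7 and 15.7 against 14.5, 15.8 and 16.6 FPKM. Of 18 lipogenic genes 1 was higher, Lpin1, which is also in the fasting list. Thrsp, a lipogenic regulator, was at 9.33, 20.8 and 9.83 against 43.8, 53.9 and 58.8 FPKM without overlap, and saline livers held 6.81, 10.5 and 164 FPKM.

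The receptors and enzymes of prostaglandin E2 were low or little different. Of 15 genes 9 were tested and 1 of these was higher at an unadjusted p under 0.05. Ptger4, which encodes EP4, was the 1 receptor tested, at 0.677, 0.496 and 0.605 FPKM in the APAP livers and 0.484, 0.442 and 0.764 FPKM in the dmPGE2+APAP livers. Ptger1, Ptger2 and Ptger3 stayed under the filter and reached at most 0.457, 0.497 and 0.177 FPKM. Ptgs2, the inducible cyclooxygenase, reached at most 0.0594 FPKM. Ptgs1, the constitutive one, was at 3.42, 3.34 and 3.26 FPKM in the APAP livers and 3.28, 3.15 and 3.02 FPKM in the dmPGE2+APAP livers, all below its saline levels of 4.92, 4.87 and 5.26 FPKM. Hpgd, the dehydrogenase that begins the degradation of prostaglandins, was at 28.4, 32.6 and 23.8 FPKM in the APAP livers and 37.3, 41.8 and 43.1 FPKM in the dmPGE2+APAP livers with no overlap (1.48-fold higher, limma adjusted p = 0.329). Saline livers held 43, 54.2 and 52.2 FPKM, and after scaling 2 of the 3 dmPGE2+APAP livers lay within that range and the first below it. Slco2a1, the uptake transporter, was at 12.9, 13 and 13.8 against 12.4, 13.8 and 11.8 FPKM.

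Of 34 tested genes of cAMP signalling and CREB feedback 1 was higher and 3 lower (median −0.084), with 2 to 6 lower when a library was left out. The median turned slightly positive with a filter of 1 FPKM and when APAP replicate 1 or 3 or dmPGE2+APAP replicate 2 or 3 was left out. Arl4d was the higher one, in a list chosen with earlier results of these data known. The lower ones were Fosb, Fosl2 and Areg, an EGF receptor ligand at 1.4, 0.919 and 1.81 FPKM in the APAP livers and 0.348, 0.524 and 0.386 FPKM in the dmPGE2+APAP livers (2.74-fold lower, with no overlap). Fosb and Fosl2 are also in the immediate early list and Areg in that of regeneration signals, so these counts are not separate observations. Feedback genes of the pathway overlapped: Crem was at 11.2, 8.8 and 10.4 against 9.63, 9.48 and 8.11 FPKM. The phosphodiesterase gene Pde4b was at 7.23, 4.2 and 5.8 against 7.18, 2.54 and 3.1 FPKM, and Pde4d was at 6.03, 3.07 and 6.17 against 4.9, 5.66 and 5.15 FPKM.

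Erythroid and platelet markers were lower after dmPGE2 in 9 of 12 tested genes. Of 16 erythroid and platelet genes 12 were tested, 1 of them through the APAP livers alone, and 9 were lower and 0 higher at an unadjusted p under 0.05 (median −1.01), 8 or 9 lower whichever library was left out, and in those 9 the groups did not overlap. Pf4, a platelet chemokine (Pf4, ENSMUSG00000029373, chromosome 5, from 90772435 to 90773383), was at 3.11, 3.55 and 3.99 FPKM in the APAP livers and 1.75, 1.06 and 0.952 FPKM in the dmPGE2+APAP livers with saline at 0.608, 0.547 and 0.434 FPKM (2.72-fold lower, limma adjusted p = 0.181). Ppbp, its relative, was at 7.02, 6.67 and 7.99 FPKM in the APAP livers and 3.16, 0.739 and 0.66 FPKM in the dmPGE2+APAP livers (5.63-fold lower). Tubb1, the platelet tubulin, was at 2.17, 1.7 and 2.33 FPKM in the APAP livers and 0.761, 0.392 and 0.149 FPKM in the dmPGE2+APAP livers (4.49-fold lower). The dmPGE2+APAP livers thus lay between saline and APAP, with the first replicate again the highest for all 3. Hba-a1, an alpha globin gene that may share reads with its copy, was at 236, 139 and 115 FPKM in the APAP livers and 71.4, 76 and 68.9 FPKM in the dmPGE2+APAP livers (2.12-fold lower). Summed FPKM of 7 erythroid genes was 519.6 to 1114 in APAP livers, 364 to 389.6 in dmPGE2+APAP livers and 361 to 495 in saline livers. Summed FPKM of 9 platelet genes was 21.6 to 25.1, 8.89 to 15.3 and 4.79 to 8.04. The part of these markers in the results of other lists was not tested.

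Of 19 neutrophil markers 10 were tested, all 10 had a negative log2 fold change (median −1.05), and 3 were lower at an unadjusted p under 0.05. Between 1 and 5 were lower when a library was left out. The count also depended on the level filter. With a filter of 1 FPKM 0 of 5 tested markers were lower, and with a mean of 0.5 FPKM 1 of 6. Without a filter 8 of 18 were lower. Csf3r, the receptor of the granulocyte growth factor, was at 2.18, 0.849 and 1.34 FPKM in the APAP livers and 0.481, 0.786 and 0.48 FPKM in the dmPGE2+APAP livers. Mmp9, a granule protease, was at 0.945, 0.496 and 0.671 FPKM in the APAP livers and 0.198, 0.233 and 0.246 FPKM in the dmPGE2+APAP livers. Clec4d, a surface lectin, was at 0.981, 0.574 and 0.748 FPKM in the APAP livers and 0.407, 0.412 and 0.253 FPKM in the dmPGE2+APAP livers. These groups did not overlap, but Clec4d passed the filter through the APAP livers alone. The summed FPKM of all 19 markers was 22.5 to 65.6 in APAP livers, 11.6 to 20.9 in dmPGE2+APAP livers and 4.78 to 25.9 in saline livers, and 1 marker was at 0 in all 9. The part of these markers in the results of other lists was not tested. Il1b, the cytokine released by inflammasomes, was at 3.81, 1.35 and 2.51 FPKM in the APAP livers and 0.955, 0.826 and 0.298 FPKM in the dmPGE2+APAP livers with no overlap (3.31-fold lower, log2 −1.73 ± 0.45 SE, limma adjusted p = 0.329). The neutrophil chemokine Cxcl1 was at 11.1, 4.74 and 15 FPKM in the APAP livers and 6.59, 1.25 and 1.71 FPKM in the dmPGE2+APAP livers. Cxcl2, its relative, was at 4.46, 1.39 and 2.56 against 2.87, 0.83 and 0.446 FPKM. Both overlapped, with the first dmPGE2+APAP liver above the second APAP liver.

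Other cytokine genes were scarce or overlapped. Of 14 tested chemokines and cytokines 3 were lower (Cxcl1, Il1b and Cxcl10) and 0 higher. The interferon-induced Cxcl10 was at 5.23, 2.05 and 4.12 against 3.1, 1.42 and 0.698 FPKM. Il10, an anti-inflammatory cytokine gene, was at 1.15, 0.609 and 0.94 against 1.12, 0.493 and 0.467 FPKM. Tnf reached at most 0.183 FPKM, Ccl2 0.476 FPKM and the inflammasome gene Nlrp3 0.574 FPKM, so none of the 3 passed the filter. In the IL-1 and inflammasome list 2 of 13 genes were lower, Il1b and Nek7. Of 19 NF-kB feedback genes 2 were lower and 1 higher, the inhibitor gene Nfkbia at 32.3, 34.9 and 31.1 FPKM in the APAP livers and 32.7, 46.3 and 50.7 FPKM in the dmPGE2+APAP livers (1.33-fold higher, with overlap). Of 22 interferon-induced genes Usp18 was higher, at 2.97, 2.41 and 2.6 against 3.79, 6.5 and 4.97 FPKM with no overlap, and 0 were lower.

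Resident macrophage markers had a positive median. Of 17 Kupffer cell markers 15 had a positive log2 fold change (median 0.42). In 8 all dmPGE2+APAP livers were above all APAP livers, where 9.33% of all tested genes were, and in 1 all were below (7.41% of all). At an unadjusted p under 0.05, 4 were higher and 1 lower. The count of higher markers was 12 without APAP replicate 1 and 2 without APAP replicate 3 or dmPGE2+APAP replicate 1 or 3. Csf1r, the receptor of the macrophage growth factor, was at 12, 11.2 and 8.43 FPKM in the APAP livers and 14.3, 14.7 and 13.8 FPKM in the dmPGE2+APAP livers (1.39-fold higher). Cd5l, a secreted scavenger protein, was at 27.1, 23.5 and 15.1 FPKM in the APAP livers and 32.4, 29.4 and 30.7 FPKM in the dmPGE2+APAP livers (1.48-fold higher). Vsig4, a complement receptor, was at 14.2, 11.9 and 7.51 FPKM in the APAP livers and 15.4, 14.8 and 15.5 FPKM in the dmPGE2+APAP livers (1.43-fold higher). The third APAP liver was the lowest of the 9 in all 3 genes. The defining marker Clec4f, named after its values were seen, was at 29.9, 27.8 and 17.8 against 31.6, 31.6 and 30.2 FPKM, with no overlap. Cd68, a lysosomal protein of macrophages at large, was the lower member, at 5.61, 3.93 and 5.39 FPKM in the APAP livers and 3.7, 3.25 and 3.02 FPKM in the dmPGE2+APAP livers (1.44-fold), with no overlap. Slc40a1, the iron exporter, was at 14.4, 19.4 and 17.3 FPKM in the APAP livers and 21.2, 21.5 and 23.7 FPKM in the dmPGE2+APAP livers (1.34-fold higher), where APAP had lowered it 2.69-fold. Summed FPKM over the 17 markers was 191 to 278 in APAP livers and 267 to 305 in dmPGE2+APAP livers, with 256 to 281 in saline livers. The lowest APAP sum was that of replicate 3, and replicates 1 and 2 were at 278 and 247. Of 11 monocyte markers 4 were tested and 1, Fcgr1, was higher. Of 13 measured lymphocyte markers 1 was tested, and it did not pass.

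Plasma protein genes of hepatocytes differed little. Of 27 complement and coagulation genes 25 had a positive log2 fold change (median 0.14). In 9 the groups did not overlap, all higher, where 9.33% of all tested genes were higher without overlap. But 1 was higher at an unadjusted p under 0.05, the mannose-binding lectin gene Mbl2 at 63.6, 70.8 and 65.5 FPKM in the APAP livers and 90.6, 100.1 and 98.4 FPKM in the dmPGE2+APAP livers (1.48-fold higher). Of 30 acute phase and STAT3 genes 2 were higher and 0 lower. Hamp, which encodes the iron hormone hepcidin, was at 203, 259 and 263 FPKM in the APAP livers and 593, 412 and 601 FPKM in the dmPGE2+APAP livers with saline at 739.7, 599.7 and 1029.7 FPKM. Its treated groups did not overlap, and the dmPGE2+APAP livers lay above APAP (2.25-fold higher, log2 1.17 ± 0.22 SE, limma adjusted p = 0.209). As deposited only the third dmPGE2+APAP liver reached the lowest saline liver. After scaling the first did too, and the second lay below it either way. Hamp and Slc40a1 were the 2 higher members of 22 iron and haem genes, and Hmox1 the 1 lower.

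Of 10 regulators of fibrinolysis and tissue factor 4 were lower and 1 higher (median −0.30), and the count of lower members fell to 0 without APAP replicate 3 or dmPGE2+APAP replicate 3. Thbs1, thrombospondin, was at 6.39, 2.9 and 8.92 FPKM in the APAP livers and 4.0, 1.26 and 0.803 FPKM in the dmPGE2+APAP livers (3.21-fold lower). The groups overlapped through the first dmPGE2+APAP liver. Thbd, the endothelial anticoagulant receptor thrombomodulin, was the higher one, at 12.3, 8.94 and 9.8 FPKM in the APAP livers and 13.2, 13.2 and 12.4 FPKM in the dmPGE2+APAP livers with no overlap (1.29-fold).

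All 19 cytoskeletal genes had a negative log2 fold change (median −0.42), and 7 were lower at an unadjusted p under 0.05, and 4 to 10 when a library was left out. The 7 were 4 of 6 genes of the actin group and 3 of 4 keratins, with 0 of 9 tubulins (tubulin median −0.23). APAP had raised 9 of the 19 over saline and lowered 0. Krt8, a keratin of hepatocytes and ducts, was at 215, 166 and 253 FPKM in the APAP livers and 185, 69.3 and 63.2 FPKM in the dmPGE2+APAP livers and overlapped through the first dmPGE2+APAP liver (2.19-fold lower). Tpm4, a tropomyosin, was at 19.7, 14.5 and 17.5 FPKM in the APAP livers and 12.3, 11.7 and 9.63 FPKM in the dmPGE2+APAP livers with no overlap. Tagln2, an actin-binding transgelin, was at 6.21, 4.46 and 6.25 against 3.44, 3.78 and 3.52 FPKM. Krt23, another keratin, was at 2.31, 1.98 and 1.53 against 1.34, 0.68 and 0.766 FPKM. Neither of these 2 overlapped. Of 22 regeneration signals 5 were lower and 1 higher (4 to 9 lower when a library was left out). Btc, an EGF receptor ligand like Areg, was at 2.16, 2.46 and 2.58 FPKM in the APAP livers and 0.786, 1.44 and 1.04 FPKM in the dmPGE2+APAP livers (2.11-fold lower). The activin antagonist gene Fst was at 1.63, 1.54 and 1.71 FPKM in the APAP livers and 0.658, 0.868 and 0.912 FPKM in the dmPGE2+APAP livers (1.87-fold lower). The activin subunit gene Inhbe was 1.69-fold lower, and the receptor gene Il6ra 1.35-fold higher. None of Btc, Fst, Inhbe and Il6ra overlapped.

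Other non-parenchymal markers differed in few genes. Of 19 endothelial genes 3 were higher and 1 lower: Lyve1, a sinusoidal hyaluronan receptor, was at 15.6, 13.8 and 11.3 FPKM in the APAP livers and 16.8, 27.2 and 24.3 FPKM in the dmPGE2+APAP livers (1.69-fold higher), Cdh5 and Vcam1 were 1.42-fold and 1.41-fold higher, and Selp, platelet and endothelial P-selectin, was 1.75-fold lower. Of 18 stellate and matrix genes 1 was higher and 2 lower, with Pdgfra at 5.84, 4.67 and 6.31 against 4.23, 3.95 and 4.19 FPKM without overlap. Of 7 cholangiocyte markers 0 were past an unadjusted p of 0.05, and Sox9 ran at 7.01, 7.53 and 15.2 against 15.7, 4.31 and 3.8 FPKM. Of 16 cell cycle genes 1, Ccne2, was higher (1.64-fold).

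The lists described next each held 0 to 3 members past an unadjusted p of 0.05. Of 20 JNK cascade genes 2 were lower, the phosphatases Dusp10 (1.34-fold) and Dusp16 (1.32-fold), and Mapk8, which encodes JNK1, was at 8.14, 7.97 and 9.22 against 7.5, 11.6 and 8.98 FPKM. Of 23 cell death genes 1 was lower, Tnfrsf12a at 35.4, 22.1 and 37.3 against 20.2, 18.1 and 12.6 FPKM. Of 18 hypoxia genes Ndrg1 was higher (1.55-fold) and Hilpda lower. Of 16 autophagy genes Atg5 was higher (1.22-fold), and Sqstm1, the cargo adaptor p62, was at 437, 343 and 435 against 333, 296 and 261 FPKM without overlap. Of 23 cholesterol synthesis genes 1 was higher, Tm7sf2 (1.2-fold). Of 21 nuclear oxidative phosphorylation genes 20 had a positive log2 fold change with a median of 0.15. In 7 the groups did not overlap, all higher, where 9.33% of all tested genes were higher without overlap. At an unadjusted p under 0.05, 3 were higher, the largest of those being Cox4i1 at 1.24-fold, while 0 were higher without dmPGE2+APAP replicate 1. With limma 0 of 25 proteasome, 0 of 21 ribosomal protein and 0 of 11 mitochondrially encoded genes were past an unadjusted p of 0.05, with medians of 0.075, 0.0075 and 0.11. The median of the cytosolic ribosomal genes turned slightly negative without rescaling (−0.022) and with median-of-ratios scaling. Albumin itself was at 26778, 31737 and 27419 against 31349, 28045 and 27412 FPKM.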

How the data were processed

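Liver mRNA levels of 9 libraries, 3 each of saline, APAP and dmPGE2+APAP, were read from one deposited table of FPKM, made by the authors from reads of GRCm38 (mm10) aligned with HISAT2, per the submitters' processing notes. The tool that computed FPKM, and its version, are not given in the sources used here. A second deposited table, labelled as read counts, holds a score that equals FPKM times the genomic span of the gene and a library constant within 1% for 96.0% to 96.9% of single-transcript genes. It is not a count, no count test was run, and depth is unknown. The saline columns were assigned to their group by elimination and carry no replicate number. Of the gene IDs, 21762 of 21870 matched the GENCODE M21 annotation.

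FPKM were divided by an unweighted TMM factor (trims of 30% and 5%), a pseudocount of 0.1 was added, and log2 values were fitted with limma 3.58.1 (R 4.3.3) with an abundance trend, 3 group means, 6 residual degrees of freedom and Benjamini-Hochberg adjustment over 11557 genes, two-sided. The script was tested on simulated data. Named genes were, first, any past an adjusted p of 0.05, then the 12 higher and 12 lower with the largest change among genes without overlap, with an unadjusted p under 0.05 and a mean of 1 FPKM or more, up to 4 members of each list by p, and a set of prostaglandin, cytokine and stress genes. The 12 genes with the smallest p, and Krt8, Klf2, Vsig4, Per1, Phlda1, Dusp1, Prkar1a, G0s2, Atf4 and Clec4f, were added after values were seen. So were the genes named only because an alternative fit called them. The members, the 47 lists and the tests were chosen with earlier results of these data known.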

Additional observations from a re-analysis of the deposited data

How the results depend on the processing

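Of the 21 alternatives run, 980 list medians were computed, and 939 moved by less than 1 SD between libraries and 41 by more. Without a level filter, 948 genes were lower at an unadjusted p under 0.05 in place of 543, with more genes tested. In a fit of the 6 treated libraries alone 2 genes were called lower (Nek7 and G0s2) in place of 0. With a weight per library 1 gene was called higher (Arl4d), 885 were higher and 829 lower at an unadjusted p under 0.05, and 2847 differed between dmPGE2+APAP and saline in place of 1887. The cause was not tested for these 2 fits. When each library was left out in turn, calls ranged from 0 to 11 higher and from 0 to 23 lower, and genes at an unadjusted p under 0.05 from 265 to 710 higher and from 346 to 736 lower. Genes whose groups do not overlap ranged from 1074 to 2292 higher and from 845 to 1786 lower, in part because fewer libraries overlap less often. Calls of APAP against saline ranged from 1532 to 2296 and those of dmPGE2+APAP against saline from 1031 to 1819. The highest counts of calls between the treated groups came without dmPGE2+APAP replicate 1. Of the named genes, 10 with a log2 difference near 0 (Cdkn1a, Nr4a1, Gclm, Plac8, Alb, Ptger4, Pde4d, Ppargc1a, mt-Co2 and Slco2a1) changed sign in 1 or more alternatives, and none of the 10 had passed a test. The medians of 20 of the 47 lists also changed sign in 1 or more alternatives, among them those of cAMP and CREB feedback, NRF2 and glutathione, cytosolic ribosomal genes, fatty acid oxidation, p53 targets and stellate cells.

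No sign of pairing by replicate number was seen. Deviations of same-numbered APAP and dmPGE2+APAP libraries correlated at 0.023, 0.023 and −0.117 across genes, and those of differently numbered libraries at −0.154 to 0.149. With so few libraries this cannot show that the numbers mark nothing shared. The planned replicate block over 9 libraries was not run, since the saline columns carry no number. A replicate block over the 6 treated libraries, chosen after seeing the data, called 0 genes higher and 0 lower, with 515 and 546 at an unadjusted p under 0.05 and a smallest adjusted p of 0.0543. Depth behind each FPKM is unknown, so the error of low genes is seen only in their spread.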
